A study of Mus musculus with 6 samples.

Results

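The genes described here set the activity of mTORC1, the kinase complex that couples cell growth to amino acids, growth factors and stress. The 9 members were chosen by gene symbol (Sesn2, Ddit4, Deptor, Eif4ebp1, Tsc1, Tsc2, Rheb, Mtor and Rptor) from the 16081 genes listed in the deposited tables, with earlier results of these data known. All 9 were among the 11552 genes kept by the filter on low counts, and the lowest count of any member in any sample was 326, so no member was kept only through the group in which it was higher.

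The transcriptome of the mouse lung carcinoma line Lewis, labelled as lung adenocarcinoma cells, was sequenced in 2 groups of 3 samples. The extraction protocol in the labels describes ground tissue, although the samples are labelled as cultured cells. One group was kept for 24 hours with the vehicle DMSO and the other for the same time with SD70, an inhibitor of the histone demethylase KDM4C. No dose is stated for these samples, and both groups were grown in the same serum-containing medium. The study's methods add penicillin-streptomycin to the medium of its cell lines, and no other agent is named. The study's methods state in general that experiments were repeated independently, but the labels do not say that the samples of a group came from separate cultures. If they did not, the p-values measure only the spread between these samples, which may be technical.

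mTORC1 works at the lysosome, where Rag GTPases bring it to the small GTPase Rheb when amino acids are plentiful. The TSC complex switches Rheb off, and growth factor signals and energy stress act on that complex from opposite sides. When amino acids run short, the transcription factor ATF4 turns on genes for amino acid supply together with several inhibitors of mTORC1. All values below are transcript levels. The amount and phosphorylation of the proteins were not measured.

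Libraries held 15276744 to 17060424 counts, with 14062 to 14105 genes detected in each. Among markers of the labelled cell type, Krt8 was measured at 3916 ± 105 normalized counts with DMSO (SD, n = 3), whereas Epcam, Cdh1 and Krt19 averaged under 1 in both groups. The summed counts of the 5 epithelial markers ranged from 4019 to 4228 with DMSO and from 2414 to 2916 with SD70, and those of 5 fibroblast markers from 2821 to 2921 and from 1592 to 1837, nearly all from Pdgfra and Dcn, since Col1a1, Col1a2 and Thy1 were too low to be tested. Sums of the leukocyte markers, mostly Cd68, were 269 to 279 and 185 to 214, those of the endothelial markers 58 to 69 and 63 to 71, and those of the alveolar markers 67 to 85 and 65 to 80. The part of these shifts in the results below was not tested, and in bulk RNA fewer cells of a type and less RNA per cell cannot be told apart. Kdm4c, which encodes the target of SD70, was measured at 753 ± 34.6 normalized counts in vehicle and 765 ± 34.2 after SD70 (SD, n = 3 each). Its log2 fold change of 0.02 (edgeR, adjusted p = 0.769) changed sign under 5 of 15 alternative settings.

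Differences between the groups were tested by edgeR's quasi-likelihood method, and p-values were adjusted after Benjamini and Hochberg over all genes tested. A gene passed the test, and is said to have risen or fallen, at an adjusted p under 0.01, and it was called when its absolute log2 fold change was also at least 1. Of the 9 members, 4 rose (Sesn2, Rheb, Ddit4 and Eif4ebp1) and 1 fell (Deptor), while Mtor, Rptor, Tsc1 and Tsc2 did not pass. Among all genes tested, 49.9% passed, 25.8% higher and 24.2% lower with SD70, so 5 of 9 is a share near the background. Sesn2 and Rheb were called, against 5.90% of all genes. The normalized counts of the groups did not overlap for 7 members, against 64.4% of all genes. The median log2 fold change was 0.17 over the members and -0.00 over all genes tested. The sizes and directions are therefore described gene by gene.

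**Figure D1:**
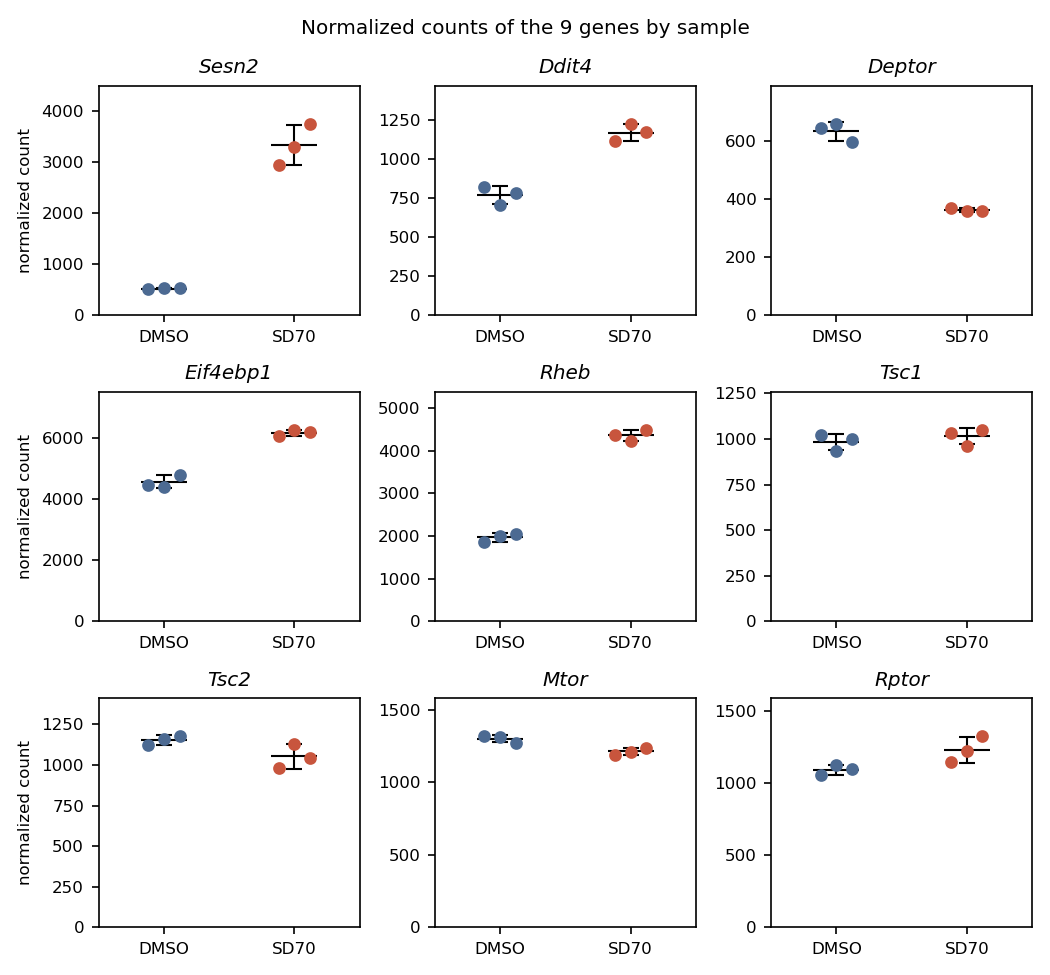
Normalized counts of the 9 genes in each of the 6 samples, on linear axes that start at 0, with a point per sample, a horizontal mark at the mean and bars of 1 SD. The groups are apart for Sesn2, Ddit4, Deptor, Eif4ebp1 and Rheb, lie close together for Mtor and Rptor, and overlap for Tsc1 and Tsc2.

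The windows just before the transcription start are shown for the 3 members that rose most, as the DNA next to which the changes were measured. They are RefSeq sequences of 250 bases on GRCm38.p6, printed 5′ to 3′ on the strand of the gene, which is the minus strand for all 3. Capitals mark the CCAAT box, read as ATTGG on the other strand. They also mark the E-box CACGTG, and ACGTG where it stands alone. The windows lie at chr4:132510457-132510706 for Sesn2, chr5:24842362-24842611 for Rheb and chr10:59951771-59952020 for Ddit4.
Sesn2: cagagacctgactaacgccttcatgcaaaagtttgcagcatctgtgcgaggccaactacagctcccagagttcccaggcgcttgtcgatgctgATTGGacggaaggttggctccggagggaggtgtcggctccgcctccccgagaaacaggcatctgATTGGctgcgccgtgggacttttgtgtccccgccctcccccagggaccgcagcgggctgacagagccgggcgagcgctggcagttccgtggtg
Rheb: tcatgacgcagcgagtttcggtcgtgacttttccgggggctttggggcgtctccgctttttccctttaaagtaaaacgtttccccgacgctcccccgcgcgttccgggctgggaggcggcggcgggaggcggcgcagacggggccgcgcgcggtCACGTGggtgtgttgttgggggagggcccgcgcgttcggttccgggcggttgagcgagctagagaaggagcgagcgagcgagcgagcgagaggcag
Ddit4: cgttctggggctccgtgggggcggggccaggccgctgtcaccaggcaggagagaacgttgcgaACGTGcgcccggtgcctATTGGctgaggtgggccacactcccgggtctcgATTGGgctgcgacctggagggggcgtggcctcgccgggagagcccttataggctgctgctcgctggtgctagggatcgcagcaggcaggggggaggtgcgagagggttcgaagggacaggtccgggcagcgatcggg

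Sesn2 held CCAAT at 157 and 93 bases before its start, and Ddit4 at 170 and 137. CCAAT was found in 3 of the 7 members that had a window, the other being Mtor, and in 33.8% of all 32851 windows of the same length. Rheb held CACGTG, the E-box bound by factors such as MYC, USF and TFEB, 96 bases before its start, and was the only member with it, against 6.02% of all windows. ACGTG, the core letters of the hypoxia response element, lies within that E-box, and was also found 187 bases before the start of Ddit4 and 34 before that of Rptor (16.6% of all windows). TGATGNAA, the composite element of ATF4 and C/EBP, was found in 0 of the 7 windows and in 3.45% of all windows. GGGCGG, an SP1 box not capitalised here, was in 4 of the 7 (Sesn2, Mtor, Rheb and Ddit4) and in 32.7% of all windows. All motifs were searched on both strands. A match describes these letters only, and letters outside the window were not searched. The windows of Tsc1 and Tsc2 precede a start that RefSeq places within the annotated span of the gene, so each lies in part inside it. Eif4ebp1 and Deptor had no window.

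Sesn2 encodes sestrin 2, which binds GATOR2 when leucine is scarce and so keeps mTORC1 from the lysosome. It (NCBI Gene 230784) is on the minus strand of chromosome 4 from 132492804 to 132510456 (GRCm38.p6). Replicates 1 to 3 had 536, 544 and 550 counts in vehicle and 2913, 3329 and 3404 counts after SD70. No DMSO sample came near any SD70 sample. Scaled to the mean effective library size, the level went from 526 ± 3.25 to 3336 ± 395 normalized counts (SD, n = 3 each). The rise was 6.34-fold (95% interval 5.72 to 7.02), a log2 fold change of 2.66 (SE 0.0718; edgeR, adjusted p = 1.75e-20), rank 32 of the 11552 genes by log2 fold change. The SD70 samples were spread more widely than the DMSO samples.

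The other sestrins moved the opposite way. Sesn1, a paralog known as a p53 target, fell from 336 ± 4.76 to 224 ± 5.89 normalized counts (log2 fold change -0.58; edgeR, adjusted p = 4.49e-07). Sesn3, a paralog known as a FOXO target, was rare, at 12, 14 and 13 counts in vehicle and 2, 5 and 3 after SD70. Its log2 fold change of -1.83 (edgeR, adjusted p = 9.30e-04) did not pass in DESeq2 (adjusted p = 0.0210) or without SD70 replicate 1 (edgeR, adjusted p = 0.0113). The size was also unsteady, from -2.20 to -0.33 over the 14 alternative settings that kept this gene. In FPKM, the deposited measure that corrects for the length of a gene and so allows levels of different genes to be compared, Sesn2 made up 60.6%, 61.6% and 60.9% of the 3 sestrins in vehicle, and 93.4%, 93.8% and 94.6% after SD70. The difference was 32.9 percentage points (exact permutation test, two-sided, p = 0.1, which with 3 samples a group is as low as this test can go). The summed FPKM of the sestrins, a quantity added after the data were seen, went from 21.2 ± 0.0404 to 85.3 ± 9.70 (SD, n = 3 each; exact permutation p = 0.1), so the fall of Sesn1 and Sesn3 was small beside the rise of Sesn2.

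**Figure D2:**
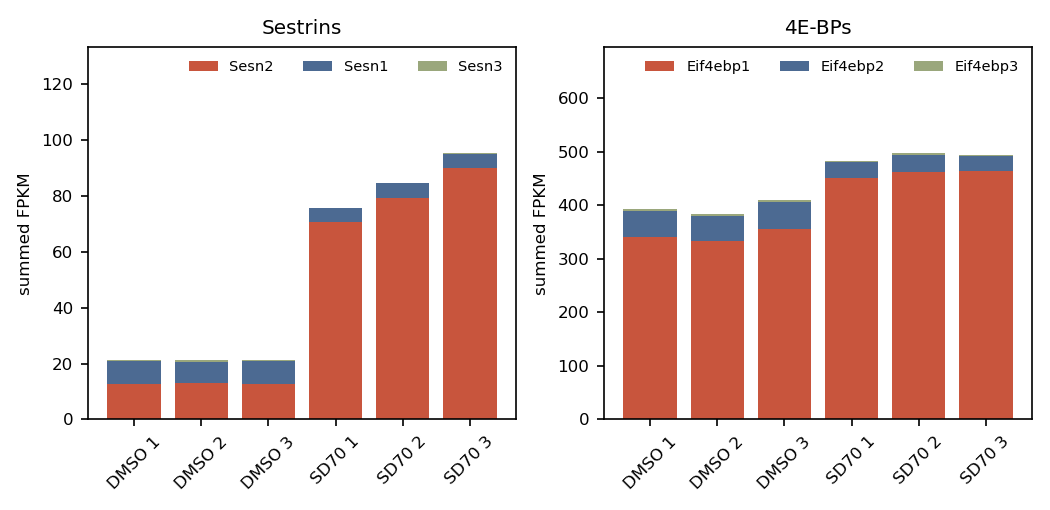
Summed FPKM of the 3 sestrins (left) and the 3 4E-BPs (right) in each sample, with stacked bars that start at 0 and a colour for each gene. Sesn2 grows from about 61.0% to 93.9% of the sestrins on average, and Eif4ebp1 from 86.9% to 93.3% of the 4E-BPs.

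Ddit4 encodes REDD1, a protein induced by hypoxia, glucocorticoids and amino acid shortage that acts through the TSC complex to hold mTORC1 down. It (NCBI Gene 74747) is on the minus strand of chromosome 10 from 59949675 to 59951770. Its counts were 844, 726 and 817 in vehicle and 1097, 1231 and 1066 after SD70. The groups did not overlap, and the lowest SD70 sample stood above the highest DMSO sample. Normalized counts were 770 ± 59.8 and 1169 ± 54.7 (SD, n = 3 each), a rise of 1.52-fold (95% interval 1.39 to 1.66) with a log2 fold change of 0.60 (SE 0.0631; edgeR, adjusted p = 4.03e-10). The paralog Ddit4l was not among the genes listed, so it could not be analysed.

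Deptor encodes an inhibitory subunit of mTORC1 and mTORC2, and was the one member that fell. It (NCBI Gene 97998) is on the plus strand of chromosome 15 from 55112317 to 55259273. In vehicle its counts were 664, 678 and 622, and after SD70 they were 366, 362 and 326. All SD70 samples lay well below all DMSO samples. Normalized counts went from 634 ± 33.0 to 363 ± 7.14 (SD, n = 3 each), which is 1.74-fold lower (log2 fold change -0.80, SE 0.0728, 95% interval -0.95 to -0.66; edgeR, adjusted p = 1.42e-11). The FPKM ratio of Deptor to Mtor was 0.490 ± 0.0198 with DMSO and 0.300 ± 0.0150 with SD70 (exact permutation test, two-sided, p = 0.1). Among the inhibitors of mTORC1 described so far, Sesn2 and Ddit4 thus rose, while Deptor and the sestrin paralogs Sesn1 and Sesn3 fell. The FPKM ratio of Sesn2 to Deptor, also added after the data were seen, was 2.70, 2.70 and 2.96 in vehicle and 26.7, 30.8 and 35.4 after SD70.

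Eif4ebp1 encodes 4E-BP1, which mTORC1 phosphorylates and which, when unphosphorylated, binds eIF4E and blocks cap-dependent translation. It (NCBI Gene 13685) is on the plus strand of chromosome 8 from 27260327 to 27275656. Counts of 4595, 4548 and 5018 in vehicle compared with 5991, 6308 and 5635 after SD70. The groups did not overlap. Normalized counts were 4569 ± 213 and 6181 ± 93.6 (SD, n = 3 each), a rise of 1.35-fold (95% interval 1.26 to 1.45; log2 fold change 0.44, SE 0.0494; edgeR, adjusted p = 2.37e-09).

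Eif4ebp2, the paralog, fell from 3699 ± 144 to 2308 ± 165 normalized counts (log2 fold change -0.68; edgeR, adjusted p = 4.27e-13). Eif4ebp3, at 47.1 ± 4.99 and 46.2 ± 9.10, had a log2 fold change of -0.03 (edgeR, adjusted p = 0.908) whose sign changed when either DMSO replicate 1 or SD70 replicate 1 was left out. Eif4ebp1 therefore went from 86.9% ± 0.217 to 93.3% ± 0.494 of the 4E-BP FPKM (exact permutation test, two-sided, p = 0.1), and the summed FPKM, added after the data were seen, from 396 ± 13.4 to 492 ± 7.28. Eif4e, which encodes the protein that 4E-BPs bind, rose by a log2 fold change of 0.16 (edgeR, adjusted p = 0.00766), but did not pass under 9 of 15 alternative settings. The FPKM ratio of Eif4ebp1 to Eif4e was 2.91, 2.78 and 3.07 with DMSO and 3.29, 3.66 and 3.80 with SD70 (exact permutation test, two-sided, p = 0.1).

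Rheb encodes the GTPase that activates mTORC1 directly, so it is an activator and not a brake. It (NCBI Gene 19744) is on the minus strand of chromosome 5 from 24802823 to 24842361. Its replicates had 1902, 2048 and 2145 counts in vehicle and 4310, 4246 and 4068 counts after SD70. The groups lay far apart, and the spread within each was small. Normalized counts were 1967 ± 104 and 4355 ± 130 (SD, n = 3 each), a rise of 2.21-fold (95% interval 2.06 to 2.38; log2 fold change 1.15, SE 0.0519; edgeR, adjusted p = 1.29e-19), rank 279 by log2 fold change. Its paralog Rhebl1 had a log2 fold change of -0.27 and did not pass (edgeR, adjusted p = 0.142). That value rested on single samples, at -0.41 without DMSO replicate 1 (edgeR, adjusted p = 0.0300) and -0.08 without DMSO replicate 3 (edgeR, adjusted p = 0.717).

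Tsc1 and Tsc2 encode hamartin and tuberin, which form the complex that switches Rheb off, with tuberin as the GTPase-activating subunit and hamartin as its stabiliser. Tsc1 (NCBI Gene 64930, plus strand of chromosome 2, 28640993 to 28691172) had 1046, 962 and 1040 counts in vehicle and 1019, 970 and 952 after SD70. The log2 fold change of Tsc1 was 0.04 (95% interval -0.08 to 0.17; edgeR, adjusted p = 0.540), and the sign turned when DMSO replicate 2 was left out (-0.0023). Tsc2 (NCBI Gene 22084, minus strand of chromosome 17, 24595816 to 24632676) had normalized counts of 1153 ± 28.8 and 1053 ± 75.0 (SD, n = 3 each). The groups overlapped for both genes.

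The log2 fold change of Tsc2 was -0.13 (95% interval -0.25 to -0.01; edgeR, adjusted p = 0.0556). Tsc2 was the 1 member whose deposited counts were not whole numbers, in all 6 samples, and its 3′ end shares 699 annotated bases with Pkd1 on the other strand, itself at 1868 ± 83.8 and 1579 ± 45.7 normalized counts. The protocol describes no step that marks strand, so reads from the shared bases cannot be told apart and the Tsc2 level is uncertain to that extent. The FPKM ratio of Tsc2 to Tsc1 was 1.53, 1.74 and 1.63 in vehicle and 1.32, 1.63 and 1.39 after SD70. The groups overlapped (exact permutation test without pairing, two-sided, p = 0.3), although the ratio, and the normalized counts of Tsc2, were lower after SD70 in all 3 pairs of samples with the same replicate number. The ratio of Rheb to Tsc2 in FPKM, added after the data were seen, was 6.66, 6.82 and 6.99 with DMSO and 17.9, 14.9 and 17.3 with SD70.

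Mtor encodes the kinase and Rptor encodes raptor, the scaffold that brings substrates to mTORC1. Mtor (NCBI Gene 56717, plus strand of chromosome 4, 148448582 to 148557685) had 1352, 1352 and 1325 counts in vehicle and 1174, 1220 and 1123 after SD70. The groups did not overlap, yet the log2 fold change was only -0.10 (95% interval -0.21 to 0.01; edgeR, adjusted p = 0.112), so changes of more than 0.21 in size lie outside its interval. Angptl7, which lies within Mtor on the other strand, had at most 1 count in any sample.

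Rptor (NCBI Gene 74370, plus strand of chromosome 11, 119602905 to 119899591) had normalized counts of 1060, 1126 and 1098 with DMSO and 1147, 1223 and 1328 with SD70. The groups were apart by a narrow margin, and SD70 replicate 1 was the lowest of its group. The log2 fold change was 0.17 (95% interval 0.05 to 0.29; edgeR, adjusted p = 0.0138), short of the threshold. It was 0.22 without SD70 replicate 1 (edgeR, adjusted p = 0.00302) and 0.11 without SD70 replicate 3 (edgeR, adjusted p = 0.144). Rictor, which encodes the scaffold of mTORC2, fell from 1490 ± 104 to 1167 ± 44.9 normalized counts (log2 fold change -0.35; edgeR, adjusted p = 3.67e-06). The FPKM ratio of Rptor to Rictor was 1.03, 1.15 and 1.22 with DMSO and 1.43, 1.76 and 1.79 with SD70 (exact permutation test, two-sided, p = 0.1).

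**Figure D3:**
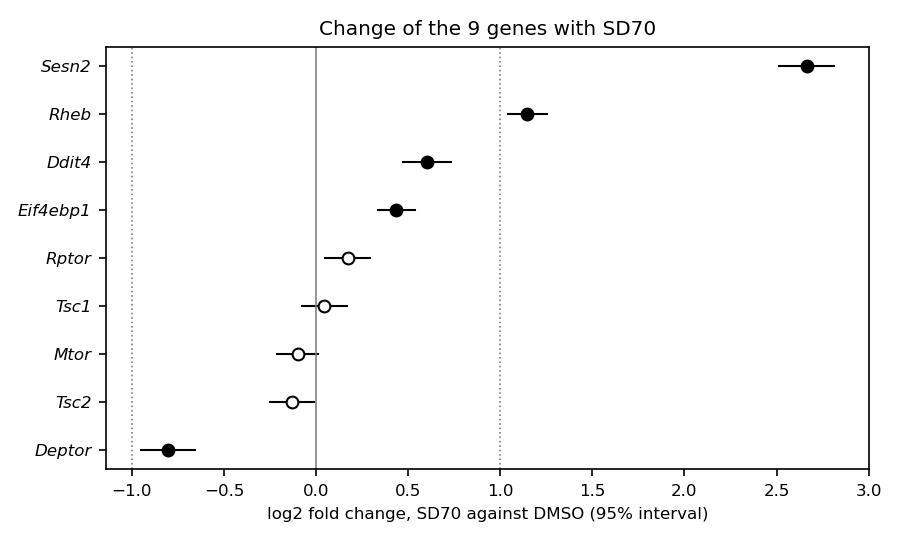
Log2 fold change of each of the 9 genes, SD70 against DMSO, with 95% intervals; filled points have an adjusted p under 0.01 and dotted lines mark 1 and -1. Sesn2 at 2.66 and Rheb at 1.15 lie beyond the dotted line, and the points of Tsc1, Tsc2, Mtor and Rptor are open.

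The order of the members by level was read in FPKM. With DMSO, Eif4ebp1 was highest at 344, followed by Rheb at 88.9 and Ddit4 at 31.1. Tsc2 (12.66 to 13.24) and Sesn2 (12.86 to 13.03) came next and could not be told apart, since their samples overlapped. Below them were Rptor at 11.3, Mtor, Tsc1 and then Deptor at 4.65, with no overlap between neighbours. With SD70, Sesn2 stood at 80.2, above Ddit4 at 46.3 and below Rheb at 193. Rptor (11.23 to 13.73) and Tsc2 (10.83 to 12.49) then overlapped, and Deptor was lowest at 2.60.

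**Figure D4:**
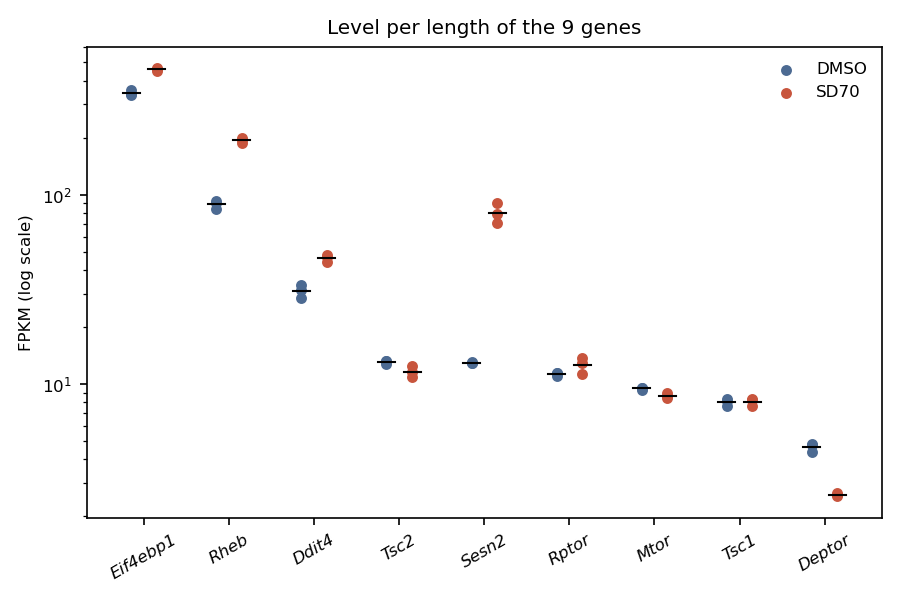
FPKM of the 9 genes in each sample on a log axis, ordered by their mean with DMSO, with points for samples and a bar at each mean. Sesn2 moves from the level of Tsc2 with DMSO (12.9) to a level between Rheb and Ddit4 with SD70 (80.2).

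The genes whose values over the 6 samples were most like those of a member were found by the root mean square difference in log2 CPM (counts scaled to a common library size), after each gene was centred on its DMSO mean. For Sesn2 these were Ppp1r15a, which encodes the eIF2alpha phosphatase subunit GADD34 (difference 0.0898), the amino acid transporter gene Slc1a4 (0.0913) and Ddit3, which encodes CHOP (0.0957). For Ddit4 they were Lipt1 (0.0406), Tmem192 (0.0487) and Unk (0.0504). For Eif4ebp1 they were Maff (0.0253), Ube2d3 (0.0268) and Prep (0.0270), and for Deptor they were Dok4 (0.0356), Abca7 (0.0405) and Gzf1 (0.0411). With 2 groups, a gene is found mainly because its fold change is of similar size.

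The list of subunits and assembly factors of the mTOR complexes held 12 genes, Mtor, Rptor and Deptor among them. Of the 10 tested, 4 rose and 2 fell (Deptor and Rictor, both given above), with a median log2 fold change of 0.12. Here and for the lists below, the shares over all genes tested were 25.8% higher and 24.2% lower with SD70. Tti2, part of the TTT complex that helps to assemble mTOR and related kinases, rose by 1.13, and Mlst8, a subunit of both complexes, by 0.59. Of the 5 genes of the TSC complex and Rheb, Tbc1d7, a further TSC subunit, was the other to rise (0.33; edgeR, adjusted p = 0.00609), but did not pass under 6 of 15 alternative settings.

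On the lysosomal side, 3 of the 9 tested Rag GTPase and Ragulator genes passed, with Rragc up by 0.32 on the log2 scale and Rragd (-0.50) and Lamtor2 (-0.38) down. Of 7 genes of GATOR1, which switches the Rags off, and of KICSTOR, which tethers it, 3 rose and 2 fell. Itfg2 and BC048403, both KICSTOR genes, each rose by 1.04 on the log2 scale. Of the GATOR1 genes, Nprl2 (-0.40) and Depdc5 (-0.39) fell and Nprl3 (0.32) rose. Of the 5 GATOR2 genes, 3 rose and 1 fell, led by Mios at 0.61, with Wdr24 at -0.34 and Seh1l at 0.26, while Wdr59 (0.17) did not pass under 11 of 15 alternative settings. The members of these complexes therefore moved both ways, and their medians were 0.01, -0.04 and 0.17 on the log2 scale.

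Of the amino acid sensors and folliculin partners, 5 of 10 rose and 4 fell, the rare Sesn3 among the latter, with a median of 0.10. Castor2, a homologue of the arginine sensor CASTOR1, fell from 1863 ± 101 to 572 ± 9.09 normalized counts (log2 fold change -1.70; edgeR, adjusted p = 1.16e-22). Lars, the leucyl-tRNA synthetase gene that is also described as a leucine sensor, rose by 0.85 on the log2 scale. Of the stress-induced brakes, all 7 tested passed, against 49.9% of all genes tested. Of these, 4 were higher and 3 lower, the rare Sesn3 among the lower, with a median of 0.60. Trib3, which encodes a pseudokinase that binds AKT, rose from 640 ± 55.3 to 4986 ± 554 normalized counts (2.96; edgeR, adjusted p = 3.18e-15), and Txnip, induced by glucose and known to restrain mTORC1 with REDD1, by 1.30.

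Of the input from insulin, PI3K and AKT, 2 of 14 tested genes rose and 7 fell, with a median of -0.23. Pik3r1, the regulatory subunit of PI3K, rose by 0.79, while Igf1r (-0.58) and Pik3cb (-0.36) fell. Of 8 tested AMPK and LKB1 genes, which carry the energy signal, 2 rose and 3 fell. The largest were the AMPK subunit gene Prkab2 (-0.53) and Cab39 (0.41), a scaffold for LKB1, followed by Prkab1 (0.34) and Prkaa1 (-0.22), and the median was -0.05.

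Of 18 tested substrates and effectors of mTORC1, 5 rose and 8 fell, with a median of -0.05. Tfeb, the lysosomal transcription factor that mTORC1 holds in the cytoplasm, fell by 0.98 on the log2 scale. Lpin1, which acts on lipid synthesis, and Pdcd4, an inhibitor of the eIF4A helicase, fell by 0.80 and 0.70. Of 10 genes of biosynthesis known to be driven by mTORC1, 2 rose and 5 fell, with a median of -0.16. Mthfd2 of mitochondrial one-carbon metabolism rose by 1.78, whereas Hmgcs1 (-0.67), Srebf1 (-0.43) and Fasn (-0.42) of lipid synthesis fell.

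**Figure D5:**
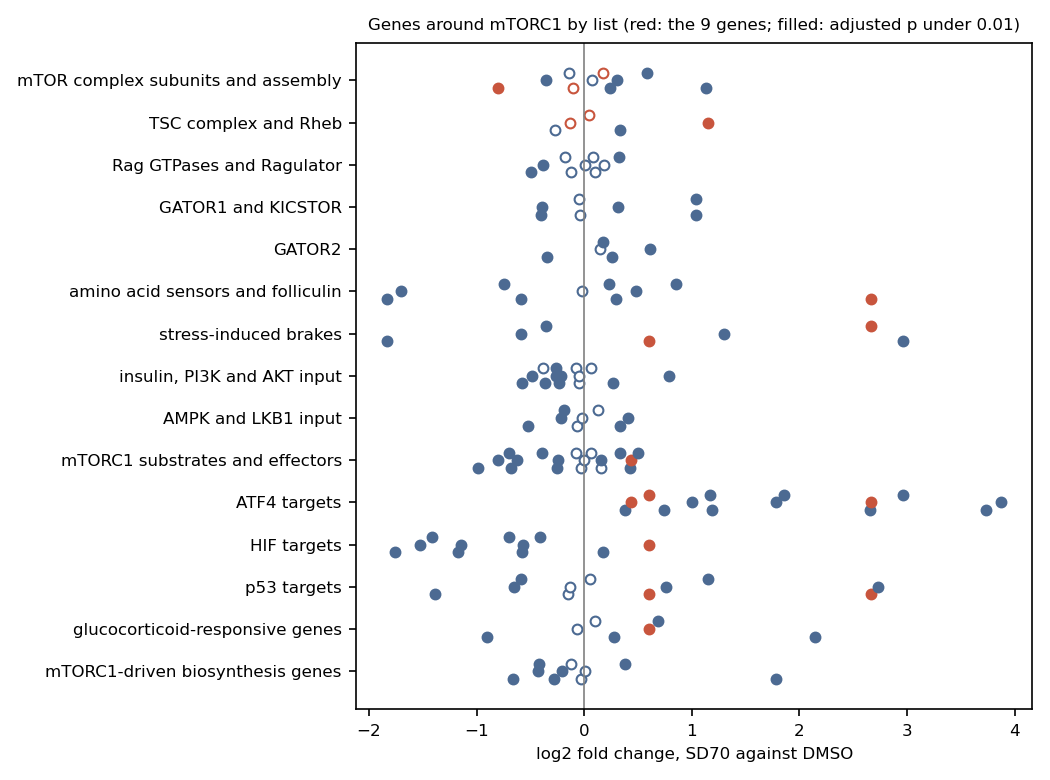
Log2 fold change of each tested gene, SD70 against DMSO, by list, with red points for the 9 members, blue for other genes and filled points for an adjusted p under 0.01; a gene on several lists is drawn in each. Points of the ATF4 list all lie to the right of 0 and 9 of the 11 on the HIF list lie to the left, while the other lists lie on both sides.

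Sesn2, Ddit4 and Eif4ebp1 are also on lists of targets of known transcription factors, and those lists were read beside them. Atf4 itself rose from 7829 ± 1005 to 31299 ± 703 normalized counts (log2 fold change 2.00; edgeR, adjusted p = 1.57e-13). Of 16 ATF4 targets, a list that holds Sesn2, Ddit4 and Eif4ebp1, 14 were tested and all 14 rose, and 10 of them were called. Among all genes tested, 25.8% rose and 5.90% were called in either direction. The list was drawn up with earlier results known and shares those 3 members, so its count is a description only. Their median log2 fold change was 1.48, with Chac1, a glutathione-degrading enzyme, at 3.88 and Atf3, a stress transcription factor, at 3.74. Sesn2 was above that median, and Ddit4 and Eif4ebp1 were below it.

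Ddit4 is also a HIF target, and that list went the other way, with 9 of 11 lower and a median of -0.70. Adm (adrenomedullin, -1.76), Ankrd37 (-1.52), Car9 (carbonic anhydrase 9, -1.42) and Bnip3 (a mitophagy receptor, -1.18) fell most. Of 7 glucocorticoid-responsive genes, which include Ddit4, 4 rose and 1 fell, with Tsc22d3 at 2.14, Klf9 at 0.69 and a median of 0.28. Zbtb16, the one that fell (-0.90), did not pass under 7 of 15 alternative settings. Of 11 p53 targets, which include Sesn2, 5 rose and 3 fell, with Eda2r at 2.73 and Bbc3 (PUMA) at 1.15 but Cdkn1a (p21) at -1.39, and the median was 0.05. These are counts and medians of lists that share genes, and no list was tested as a whole.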

How the data were processed

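RNA was measured in 6 samples grouped by their treatment labels. The authors aligned reads to GRCm38.p6 with HISAT (methods). The submitters' processing notes name StringTie 1.3.3b and another build without saying what each was used for, and how reads were counted is not given in the sources used here. The deposited values were an expected count per gene, not normalized and not whole for 8.84% to 9.28% of genes per sample, and an FPKM value, which the authors scaled by gene length and library size.

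Expected counts were rounded, filtered by filterByExpr, and normalized by TMM, and edgeR 4.0.16 (R 4.3.3) was used for the quasi-likelihood test, with robust dispersions. Normalized counts are scaled to the mean effective library of 16559245. Standard errors were derived from the F statistic. Shares and ratios of FPKM were compared by exact permutation over samples, with scipy 1.17.1. Between samples of a group, chi-square per gene was 2.12 to 4.97, so no pair was treated as 1 library deposited more than once. This does not show that the samples came from separate cultures. With 3 samples per group, low counts such as those of Sesn3 are the least precise.

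The labels give both groups the replicate numbers 1 to 3. Deviations from the group means correlated at 0.176, 0.254 and 0.157 for samples with the same number (9623 genes), and from -0.186 to 0.0113 for the others. Each group was centred on its own mean, so high values for some combinations make others lower and the contrast is partly built in. It does not show that the samples were paired, and the numbers were taken as pairs in an alternative fit only. Other alternatives were DESeq2 1.42.0, limma 3.58.1 on log2(FPKM + 1) and log2(FPKM + 0.1), other scalings and filters on low counts, an adjusted p under 0.05, normalized counts in place of FPKM for ratios, and leaving out each sample. The fits were first tested on simulated data, with 100 genes changed at an absolute log2 fold change of 0.5 and 100 at 2. There edgeR recovered 90 and 100 of them, with 4 false calls. Far fewer genes changed in the simulation than passed in these data, so it does not cover a shift of that breadth.

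The members and lists were chosen with earlier results of these data known. Genes named are the members, their paralogs, Eif4e, Atf4, Kdm4c, up to 4 genes per list with the largest absolute log2 fold change among those that passed, the 3 genes most like Sesn2, Ddit4, Eif4ebp1 and Deptor, the cell type markers, and Pkd1 and Angptl7 for their position. One gene that this rule names is not reported here. Gene positions and promoter windows are from RefSeq (GRCm38.p6), with windows matched for 7 of the 9 members.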

Additional observations from a re-analysis of the deposited data

How the results depend on the processing

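Over 15 alternative settings, 5 or 6 of the 9 members passed the test and 2 were called. Sesn2 (2.54 to 2.74), Rheb (1.11 to 1.17), Ddit4 (0.53 to 0.65), Eif4ebp1 (0.40 to 0.47) and Deptor (-0.85 to -0.65) kept their direction and passed in all 15, on the log2 scale, and Mtor (-0.14 to -0.09) and Tsc2 (-0.19 to -0.08) passed in none. With the replicate block, which pairs samples by number, 5 members passed and 2 were called, no call of a member changed, and 5756 of the 5767 genes that passed without it still did. Rptor passed without SD70 replicate 1 (0.22) and at an adjusted p under 0.05 (0.17), with a range of 0.11 to 0.22 when each sample was left out. The sign of Tsc1 turned without DMSO replicate 2 (-0.0023, range -0.0023 to 0.0830), that of Eif4ebp3 without DMSO replicate 1 (0.04) and without SD70 replicate 1 (0.12, range -0.17 to 0.12), and that of Kdm4c with library totals alone (-0.0148), limma on log2(FPKM + 1) (-0.00710) and log2(FPKM + 0.1) (-0.00763), without DMSO replicate 2 (-0.0237) and without SD70 replicate 1 (-0.0106, range -0.0237 to 0.0551). The cause was not tested. The number of genes called was 681, and 283 with limma on log2(FPKM + 1), where the pseudocount shrinks the changes of low genes, and 621 to 721 when each sample was left out. With normalized counts in place of FPKM, which do not correct for gene length, the differences, SD70 minus DMSO, were 17.5 percentage points for Eif4ebp1 among the 4E-BPs (6.45 in FPKM), 0.287 for Eif4ebp1 to Eif4e (0.660), 0.320 for Rptor to Rictor (0.525), 2.45 for Rheb to Tsc2 (9.89) and 8.37 for Sesn2 to Deptor (28.1). Scaling by library totals alone moved the median log2 fold change of all genes to -0.04. Both the number of samples and counting error limit these comparisons, and depth limits Sesn3, with 2 to 5 counts per SD70 sample.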
